A study of Mus musculus with 2 samples.

Results

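Thymocyte-like T cells, that is, cells carrying RNA of the recombination genes Rag1 or Dntt together with RNA of T cell genes, were taken from single-cell RNA sequencing of 2 mouse thoracic aortas. The members were chosen by a rule on raw counts of unique molecular identifiers (UMIs, which count each captured RNA molecule once). A member had at least 1 UMI of Rag1 or Dntt, at least 1 UMI over Cd3d, Cd3e, Cd3g, Cd8a, Cd8b1 and Cd4, and 0 UMIs of Cd79a, Ms4a1, C1qa, Pecam1 and Pdgfra, which mark B cells, macrophages, endothelial cells and fibroblasts. The rule found 113 members among 6744 cells in aorta 1 and 67 among 4698 in aorta 2, so 180 of 11442 cells in all. They were set against mature T cells, which had at least 2 UMIs over Cd3d, Cd3e, Cd3g and Trac and none of Rag1 or Dntt (333 and 162 cells).

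Both animals were GFPiSMC wild-type mice (Myh11-CreERT2.mT/mG on C57BL/6J), male per the study's methods. Per the sample labels they received tamoxifen when 3 weeks old (5 daily doses of 1 mg) and were studied at 12 weeks. The study's methods give a higher dose at a later age, or this dose to a subgroup slightly older than labelled, and the labels are followed here. The Myh11 promoter drives the inducible Cre in smooth muscle cells (SMCs), where recombination replaces the membrane reporter tdTomato with eGFP. Each aorta gave 1 droplet library after cold digestion and sorting of viable singlets, and both belong to 1 group, so no treatment was compared. The libraries held 47009780 and 30919996 UMIs in 8947 and 6263 deposited cells.

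T cells develop in the thymus from precursors that build their antigen receptor genes by cutting and joining V, D and J segments. Rag1 and Rag2 together make the cut, and Dntt (terminal deoxynucleotidyl transferase) adds untemplated nucleotides at the joints. Precursors first lack both coreceptors, then test a rearranged beta chain with the pre-T alpha chain Ptcra, divide, and reach a stage with both CD4 and CD8 in which the alpha chain is rearranged. Cells that pass selection shut off Rag1 and Dntt, raise MHC class I, Ccr7 and S1pr1, and leave.

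The genes of the rule were counted as follows, as a description of what chose the cells. Rag1 had a UMI in 92 of 113 members (81.4%) in aorta 1 and in 53 of 67 (79.1%) in aorta 2. Dntt had one in 106 (93.8%) and 66 (98.5%). In Myh11-positive SMCs, which should lack both genes, a Rag1 UMI was found in 0.208% and 0.360% of cells although these cells were deeper (median 8001 and 7703 UMIs, against 2287 and 2394 in the members). Both genes had a UMI in 85 and 52 members. Over all 354 and 199 cells with a T cell gene and no exclusion gene, whatever their Rag1 and Dntt counts, 92.4% and 98.1% of those with a Rag1 UMI also had a Dntt UMI, against 8.02% and 9.59% of those with none.

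A member had a median of 7 UMIs of Rag1 and Dntt together in aorta 1 and 8 in aorta 2, with a range of 1 to 34 and 1 to 30. Only 10 and 6 members stood at the limit of 1 UMI. These differed from the rest in a gene that the rule did not use: Arpp21, a thymocyte phosphoprotein, had a UMI in 20% and 16.7% of the members at the limit and in 93.2% and 96.7% of members with 2 or more. Just outside the rule on the T cell side, 7 and 4 cells had Rag1 or Dntt UMIs but none of the T cell or exclusion genes, and Arpp21 was seen in 0 and 1 of them. A further 45 and 32 cells met the rule except for an exclusion gene, Pecam1 in 33 and 28 of them, and Arpp21 had a UMI in 84.4% and 90.6% of these cells.

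**Figure D1:**
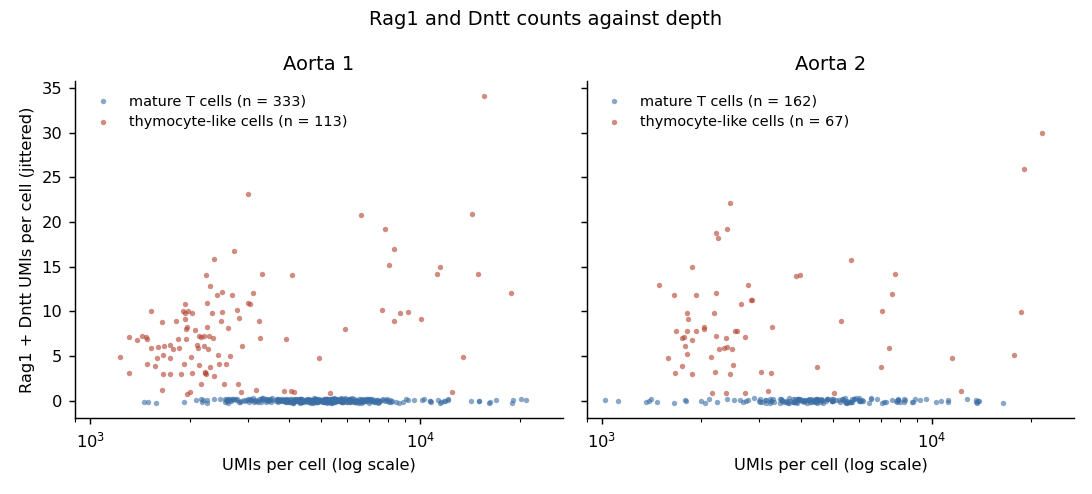
Each point is 1 cell of aorta 1 (left) or aorta 2 (right), with its UMIs per cell on a log axis and its summed Rag1 and Dntt UMIs on the vertical axis, jittered. Thymocyte-like cells (red) spread from 1 to 34 and from 1 to 30 UMIs with most cells at low depth, and mature T cells (blue) lie at 0 by rule.

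Thymocyte-like cells made up 25.3% (113 of 446; 95% exact binomial interval 21.4 to 29.6) of T-lineage cells in aorta 1 and 29.3% (67 of 229; 23.5 to 35.6) in aorta 2. The intervals overlap and cover counting error only. The share rested on depth: among cells of 5000 to 25000 UMIs it was 10% and 18.4%, because the members were shallow. No barcode of a member was found in the other library, although 18 barcodes occurred in both. Scrublet called 2 and 0 members doublets, against 22 and 5 mature T cells.

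The members were small in RNA and rich in different genes. Their median depth was 2287 and 2394 UMIs per cell, under that of mature T cells (5058 and 4471). When each cell was thinned to 1000 UMIs, the members showed a median of 678 and 672 genes and mature T cells 523 and 536. Cytoplasmic ribosomal protein genes, a list picked after those values were seen, took a median of 14.8% and 15.7% of a member's UMIs and 39.9% and 37.8% of a mature T cell's. All 77 ribosomal protein genes tested had a negative log2 fold change, and 55 were called lower. When libraries were scaled by total UMIs alone, 75 were negative and 14 were called.

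The coreceptors Cd4, Cd8a and Cd8b1, which the rule used, were seen together in most members. Both Cd4 and a Cd8 gene had UMIs in 73 members (64.6%) in aorta 1 and 39 (58.2%) in aorta 2, a Cd8 gene alone in 29.2% and 35.8%, Cd4 alone in 1.77% and 1.49%, and neither in 4.42% and 4.48%. Of mature T cells, which were deeper, 3.30% and 3.70% had both. The rule for mature T cells did not use the coreceptors, so these shares are a description with no test. The members with Cd8 alone had about the depth of those with both (2226 and 2327 against 2251 and 2383 UMIs). Levels are given as CPM, in which the summed cells of a class and aorta total 1000000 UMIs. Arpp21 stood at 1084 and 1009 CPM in the former and 1327 and 1347 CPM in the latter, so the members with Cd8 alone carried the same marker at a somewhat lower level.

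To ask which other genes set these cells apart, counts were summed per aorta and class and compared by edgeR's quasi-likelihood test over both aortas (n = 2), with the genes of the rules left out. Of 9163 genes tested, 1639 (17.9%) were called at an adjusted p under 0.05 and a log2 fold change beyond 1, 658 (7.18%) higher and 981 (10.7%) lower in thymocyte-like cells. The median log2 fold change of all genes tested was -0.11. With scaling by total UMIs alone the median moved up by 0.39, and the split became 1228 higher and 593 lower. CPM values are scaled to the total UMIs of a class without that correction, and log2 fold changes carry it. Log2 fold changes with 1 aorta left out are the exception, being plain ratios of summed counts scaled by total UMIs. The p-values rest on a spread between these 2 aortas estimated jointly over members, mature T cells, B cells and macrophages, without pairing the classes by aorta. Without the 2 members described further below as rich in Dcn or globin RNA, 662 genes were higher and 1034 lower.

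Several recombination partners were higher in the members. Of 15 genes, 12 passed the filter on low counts, 7 were called higher and none lower, with a median log2 fold change of 1.91. The median was 0.23 over all 15 genes with no filter and 0.25 with DESeq2 (6 called), and at 5000 to 25000 UMIs it was 0.45, with 4 of 9 called. Rag2, the partner of Rag1, was at 123 CPM in aorta 1 and 130 in aorta 2, against 1.08 and 0 in mature T cells (log2 fold change 6.89, SE 0.53, edgeR adjusted p = 9.55e-06). The members' values in the aortas were close to each other and far from both mature T cell values. Xrcc6 (Ku70, which binds broken ends) was at 365 and 349 CPM against 23.3 and 19.1 (log2 fold change 3.63, edgeR adjusted p = 1.5e-07). Lig4, the ligase that seals the joint, was at 94.3 and 68.4 CPM against 7.04 and 3.58. Dclre1c (Artemis, which opens the hairpin ends) had a log2 fold change of 1.68, which was -0.37 at 5000 to 25000 UMIs (edgeR adjusted p = 0.814), and the chromatin proteins Hmgb1 and Hmgb2 rose by 2.13 and 2.36. Hmgb2 is also counted among the cell division genes below. Not every member of the machinery was called: Xrcc4, which works with Lig4, had a log2 fold change of 0.25 and the kinase Prkdc one of -1.16.

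Ptcra was uneven between the aortas, with 46 UMIs in 20 members of aorta 1 and 4 UMIs in 4 members of aorta 2. It had 0 UMIs in mature T cells, B cells and macrophages, and a UMI in 2 of 2401 and 3 of 1668 SMCs. This is 111 and 14.4 CPM. Set against the floor of 3 UMIs over both aortas in mature T cells (1.12 CPM), Ptcra was at least 64.7-fold higher in the members summed over both aortas. That bound rests on aorta 1, and without it Ptcra was at least 4.02-fold higher. The edgeR adjusted p was 0.00257 and the DESeq2 adjusted p 0.29.

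The RefSeq promoters (GRCm38.p6, 250 bases before to 50 after the start) of the recombination genes and of Ptcra are shown because these genes stood together in the members. Capitals mark, on either strand, the letters CAGNTG (E-box, bound by Tcf3 and Tcf12), TGTGGT (Runx) and CTTTGA (Tcf7 and Lef1). The genes lie at chr2:101638282-101649501, minus strand (Rag1), chr2:101624718-101632529, plus strand (Rag2), chr19:41029275-41059525, plus strand (Dntt), and chr17:46755663-46763712, minus strand (Ptcra), and the windows at chr2:101649483-101649782, chr2:101624462-101624761, chr19:41029025-41029324 and chr17:46763663-46763962 in the same order.
Rag1: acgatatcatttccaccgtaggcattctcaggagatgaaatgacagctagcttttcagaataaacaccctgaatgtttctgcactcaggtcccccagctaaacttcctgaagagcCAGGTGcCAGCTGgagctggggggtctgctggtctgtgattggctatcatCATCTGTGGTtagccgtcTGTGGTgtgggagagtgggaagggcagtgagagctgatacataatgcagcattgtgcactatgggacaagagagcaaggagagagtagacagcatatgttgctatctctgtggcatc
Rag2: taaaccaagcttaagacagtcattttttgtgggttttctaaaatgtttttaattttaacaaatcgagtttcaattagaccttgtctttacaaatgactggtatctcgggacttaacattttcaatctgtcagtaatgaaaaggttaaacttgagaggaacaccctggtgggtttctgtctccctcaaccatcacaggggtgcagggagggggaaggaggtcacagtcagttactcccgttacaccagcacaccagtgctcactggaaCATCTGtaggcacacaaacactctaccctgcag
Dntt: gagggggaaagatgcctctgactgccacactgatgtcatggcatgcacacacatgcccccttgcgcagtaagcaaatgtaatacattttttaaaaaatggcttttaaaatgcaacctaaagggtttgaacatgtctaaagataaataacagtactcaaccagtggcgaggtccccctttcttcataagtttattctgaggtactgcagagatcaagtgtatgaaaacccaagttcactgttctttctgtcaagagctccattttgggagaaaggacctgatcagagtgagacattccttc
Ptcra: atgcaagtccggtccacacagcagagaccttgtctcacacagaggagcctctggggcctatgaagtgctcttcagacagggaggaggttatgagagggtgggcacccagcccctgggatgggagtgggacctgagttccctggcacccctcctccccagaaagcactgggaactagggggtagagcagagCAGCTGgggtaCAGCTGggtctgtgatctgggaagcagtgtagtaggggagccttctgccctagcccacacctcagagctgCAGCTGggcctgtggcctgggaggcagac
The Rag1 window held 3 E-boxes and 2 Runx matches, with 1 pair overlapping, the Rag2 window 1 E-box, the Ptcra window 3 E-boxes and the Dntt window none of the 3 motifs. Such matches are common: an E-box was found in 51.1% of all 27025 promoters, 41.7% of those of genes tested, 43.1% of the 492 of genes higher in the members and 49.2% of the 758 of genes lower. The Runx letters were found in 12.4% of promoters of genes tested, 10.6% of those higher and 16.5% of those lower. The Tcf and Lef letters stood in 11.9%, 10.4% and 13.2%. The letters are a description of these windows and say nothing of binding.

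Genes known from the stage with both coreceptors were higher as a group. Of 20 listed genes all were tested, 17 were called higher and none lower, with a median log2 fold change of 2.94 against -0.11 over all genes. At 5000 to 25000 UMIs 13 of 19 were called, at a median of 1.74. The list shares Rag2 and Ptcra with the recombination partners. Arpp21, on chromosome 9, was at 1206 and 1160 CPM in the members and 4.34 and 1.19 in mature T cells (log2 fold change 8.05, SE 0.27, edgeR adjusted p = 2.11e-08). At 1000 UMIs per cell it was detected in 66.4% and 79.1% of members, in 0.3% and 0% of mature T cells and in 0.250% and 0.240% of SMCs. Leaving aside Ptcra and Rag2, given above, Endou (645 and 580 CPM against 6.50 and 2.39) and the aquaporin Aqp11 (486 and 468 against 5.42 and 1.19) followed, at log2 fold changes of 6.47 and 6.45. For Arpp21, Endou and Aqp11 the lower member value was far above the higher mature T cell value.

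Bcl2l1 (Bcl-xL), a survival gene of thymocytes, rose by 2.35 on the log2 scale (not called at 5000 to 25000 UMIs, edgeR adjusted p = 0.0718), whereas Bcl2, the survival gene of mature T cells, fell by 3.59, from 398 and 474 CPM to 53.2 and 39.6. Ccr9, the receptor for the thymic chemokine Ccl25, was at 1216 and 1106 CPM against 163 and 96.7. Ets2, Cd24a (heat-stable antigen) and Rmnd5a rose by 3.20, 3.16 and 3.38. Themis, Satb1, Tcf12, Tcf7 and the kinase Lck had log2 fold changes of 2.05, 1.46, 1.96, 1.31 and 1.23, and Lck was not called at 5000 to 25000 UMIs (0.57, edgeR adjusted p = 0.109). Cxcr4 (0.93, edgeR adjusted p = 0.00603) missed the limit on fold change, and Cd1d1 (0.81, edgeR adjusted p = 0.0895) missed both.

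**Figure D2:**
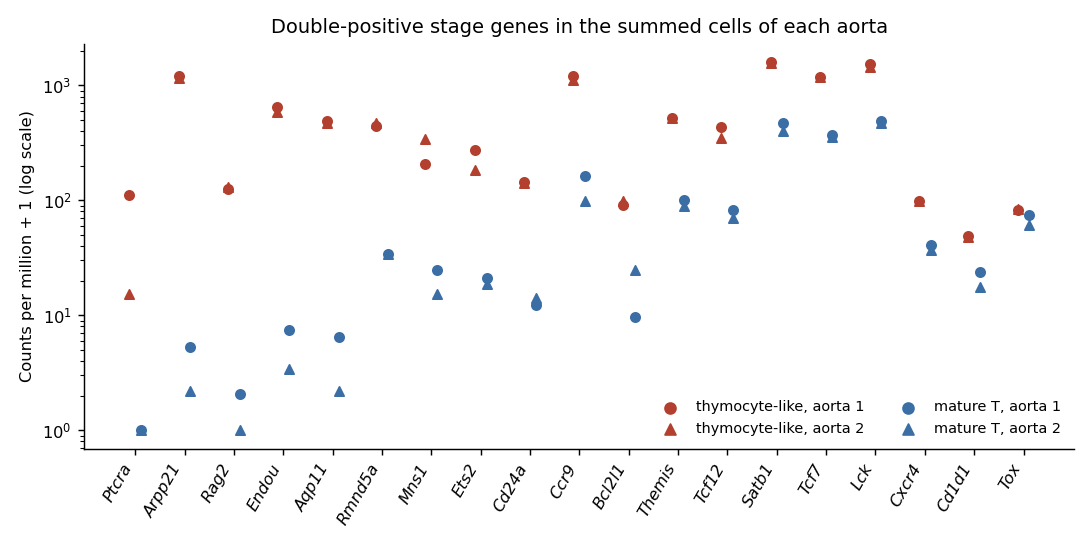
CPM plus 1 on a log axis for 19 of the 20 genes of the stage with both coreceptors, ordered by log2 fold change, in the summed thymocyte-like (red) and mature T cells (blue) of aorta 1 (circles) and aorta 2 (triangles). Arpp21 stands at 1206 and 1160 CPM in the members and at 4.34 and 1.19 in mature T cells, while the classes lie close together for Tox.

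Genes of the earlier stages, before either coreceptor appears, were not raised as a group. Of 14 listed genes 10 were tested, none was called higher and 4 were lower, at a median of -1.44 (-1.12 with a gene absent from the members set at its bound). Over all genes tested 7.18% were higher and 10.7% lower, so with 10 genes none higher is near the share over all genes. In 6 of 12 alternatives 1 or 2 genes were called higher, and without mature T cells that carried an exclusion gene 1 was higher and 2 lower, at a median of -0.38. The 4 were Cd44 (1 UMI in all members), Spi1 (0 UMIs, at least 1.80-fold lower), Dtx1 (log2 fold change -3.71) and Mef2c (-1.5), and the last 2 behaved differently: without mature T cells that carried an exclusion gene, Dtx1 was still called and Mef2c was not (edgeR adjusted p = 0.961), nor was Spi1 (edgeR adjusted p = 0.38). Il2ra, the CD25 of the stage before the beta chain is tested, was at 21.8 and 10.8 CPM against 14.1 and 16.7, so the values of the classes overlapped. Igll1, the surrogate light chain of B cell precursors, had 0 UMIs in the members. It also had 0 UMIs in the mature T cells, B cells, macrophages and SMCs of aorta 1, so it set no class apart there. Vpreb1, another gene of B cell precursors, had 2 UMIs in members and 2 in mature T cells of aorta 1 (4.83 and 1.08 CPM).

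Regulators of the T lineage moved both ways. Of 16 tested, 5 were higher, 4 lower and 7 not called, with a median of 0.35. Myb, which is required in dividing and double-positive thymocytes, was at 442 and 367 CPM against 19.0 and 9.55 (log2 fold change 4.29, edgeR adjusted p = 2.15e-07). The E-proteins Tcf12 and Tcf3 and the commitment factor Bcl11b were the others besides Tcf7 that rose, Tcf3 by 1.20 and Bcl11b by 1.02. Id2, which opposes E-proteins, fell by 3.38, and the lineage factors Runx3 of CD8 cells and Zbtb7b (ThPOK) of CD4 cells fell by 3.53 and 4.52, the latter not called at 5000 to 25000 UMIs (edgeR adjusted p = 0.0622). Lef1 fell by 1.20. Runx1, the Runx gene of earlier thymocytes, had a log2 fold change of 0.97 and was just under the limit.

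Receptor chains were unequal. Trbc2 was found in each of the 180 members and summed to 5618 and 5279 CPM, against 1608 and 1461 in mature T cells (log2 fold change 1.43, edgeR adjusted p = 0.000107), and Trbc1 rose by 1.41. The alpha chain constant gene Trac, used in choosing mature T cells and so not tested, was at 358 and 378 CPM in members and 536 and 555 in mature T cells, and 58.4% and 55.2% of members had a UMI of it. Of 15 receptor and signalling genes 3 were higher (both beta constant genes and Lck) and 3 lower: the adhesion receptor Cd2, the kinase Fyn and the inhibitory receptor Cd5, by 2.01, 1.82 and 1.06. The median of the list was -0.20, and 0.20 with scaling by total UMIs alone, so its sign rested on the scaling. None of 4 gamma or delta chain genes tested was called under either scaling (median -0.26 and 0.14), and Trdc was at 89.4 and 68.4 CPM in members and 68.3 and 62.1 in mature T cells.

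Variable segments were sampled thinly by the 3' counts. In the members 15 and 12 of 128 Trav segments and 12 and 8 of 35 Trbv segments had a UMI, from 24 and 18 Trav and 33 and 22 Trbv UMIs. Trbv2 was the most counted in both aortas, with 11 UMIs in 7 cells and 8 UMIs in 4 cells. Only 2 members per aorta had more than 1 Trbv segment. No Traj UMI was found in a member. In CPM the Trbv segments summed to 79.8 and 79.2 in members against 38.5 and 29.8 in mature T cells, and Trav to 58.0 and 64.8 against 48.2 and 43.0. These counts describe RNA that reached the 3' end and cannot give a clone size.

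Genes switched on by selection and exit were low. Of 12 positive selection genes tested, 8 were lower and none higher (median -2.54), and of 14 exit and naive T cell genes 13 were lower (median -3.67). S1pr1, the receptor that draws mature cells out of the thymus, had 1 UMI and 4 UMIs in the members (2.42 and 14.4 CPM) against 182 and 159 CPM (log2 fold change -4.94, edgeR adjusted p = 2.15e-06). Its regulator Klf2 was at 79.8 and 61.2 CPM against 737 and 783, and Ccr7, which guides selected cells to the medulla, at 16.9 and 7.20 against 176 and 223. Il7r was at 33.8 and 54.0 CPM against 457 and 671. Cd69, an early sign of receptor signalling, fell by 1.86 and Itm2a by 3.19, and Dapl1, a gene of naive T cells, had 2 UMIs in all members and 623 in mature T cells.

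Effector genes were low in the members. Of 19 tested, 16 were lower and none higher, with a median of -4.80 (-3.38 with 5 genes absent from the members at their bounds). Ccl5, a chemokine of memory T cells, had 2 UMIs in the members (2.42 and 3.60 CPM) and 593 and 654 CPM in mature T cells. Nkg7 and the residency receptor Cxcr6 fell by 5.70 and 5.75. Gzma, granzyme A, singled out after its values were seen, was not called (log2 fold change -1.09, edgeR adjusted p = 0.135). It was called lower with no gene filter (edgeR adjusted p = 5.39e-06), without mature T cells that carried an exclusion gene (-1.78, edgeR adjusted p = 0.0281) and at 1000 UMIs per cell (-1.42, edgeR adjusted p = 0.0212). Without aorta 1 it was 0.92, scaled by total UMIs alone. By cells, 19 of 113 and 17 of 67 members had a UMI of it, against 11 of 333 and 1 of 162 mature T cells and 1 of 925 and 0 of 543 macrophages. In mature T cells 1 cell held 64.6% of the Gzma UMIs of aorta 1 and the whole of those of aorta 2, whereas no member held over 12.

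The antigen-presenting MHC class I genes were lower in the members. Of 13 tested, 11 were lower and none higher, at a median of -1.67. H2-K1 stood at 198 and 133 CPM against 1917 and 2026 (log2 fold change -3.94, SE 0.21, edgeR adjusted p = 1.31e-07), H2-D1 at 186 and 198 against 1368 and 1549, and B2m, the shared light chain, at 440 and 436 against 1651 and 1659. H2-Q7 fell by 4.34. At 1000 UMIs per cell, 7.08% and 5.97% of members had an H2-K1 UMI and 80.5% and 80.2% of mature T cells. Tap2, a chain of the peptide transporter, had a log2 fold change of 0.42 and was not called.

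**Figure D3:**
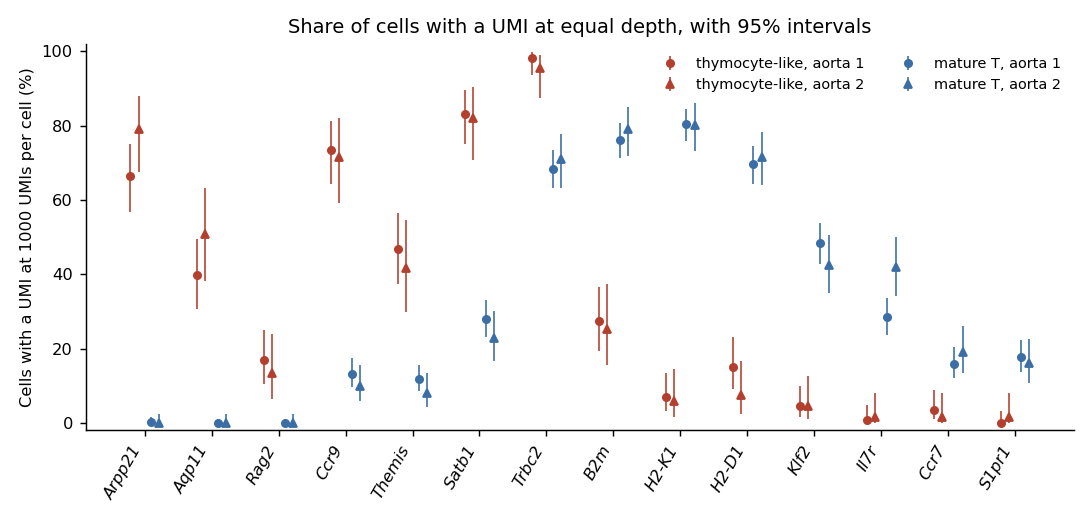
Percent of cells with at least 1 UMI of each gene when every cell was thinned to 1000 UMIs, with exact 95% binomial intervals, for thymocyte-like (red) and mature T cells (blue) of aorta 1 (circles) and aorta 2 (triangles). Arpp21 reached 66.4% and 79.1% of members and 0.3% and 0% of mature T cells, and H2-K1 7.08% and 5.97% against 80.5% and 80.2%.

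Cell division genes were higher. All 26 were tested and called higher, with a median log2 fold change of 2.50. These values come from summed counts, in which the deeper cycling members described below weigh more than their number. DESeq2 called 21, 24 were called without mature T cells that carried an exclusion gene, and with each cell at 1000 UMIs 8 of 13 tested were called, at a median of 1.36. Mki67 was at 394 and 547 CPM in members and 44.4 and 0 in mature T cells, and Rrm2, which makes deoxynucleotides, rose by 4.41, Ccna2 by 4.12, Cenpa by 1.41 and Tubb5 by 1.19. Without aorta 1 and scaled by total UMIs alone, Mki67, Rrm2, Ccna2 and Cenpa were at 9.85, 8.54, 7.93 and 2.83 on the log2 scale. The first 3 had 0 UMIs in mature T cells of aorta 2. Their values rest on a small count added before the ratio and are no bound. Cenpa and Tubb5 were not called with each cell at 1000 UMIs, and Mki67 was not called by DESeq2 (adjusted p = 0.226). At 1000 UMIs per cell, 58.4% and 71.6% of members had at least 2 UMIs of the list, against 40.2% and 43.2% of mature T cells. That share leaned on 6 genes that many cells use (Stmn1, Tubb5, Tuba1b, H2afz, Hmgb2 and Hmgn2), and with the other 20 it was 18.6% (95% exact interval 11.9 to 27.0) and 17.9% (9.61 to 29.2), against 5.11% and 1.23%. With 2 aortas a side an exact permutation test of a share cannot reach significance, and none was made.

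Members above the limit of the 20 genes, 21 and 12 cells, were larger than the other 92 and 55. Their median depth was 8329 and 7497 UMIs, against 2229 and 2246. They held 165244 of the 413666 UMIs summed over members in aorta 1 and 126459 of 277693 in aorta 2. Of Mki67, one of the 20 genes, they held all 163 UMIs in aorta 1 and 151 of 152 in aorta 2. The CPM and log2 fold changes of the members as a class thus lean on these cells and need not be typical of a member. Genes that chose the members are left out here, since a required UMI weighs more in CPM in a shallow cell. Arpp21 was at 769 and 601 CPM in cycling members and 1498 and 1627 in the rest. In aorta 1 this was 127 UMIs in 21 cells against 372 UMIs in 92, so the lower CPM did not mean fewer UMIs per cell. Themis was at 272 and 261 CPM against 676 and 734, Satb1 at 1071 and 925 against 1924 and 2076, and Trac at 145 and 103 against 499 and 608. Other genes did not follow: Ptcra was at 127 and 15.8 CPM against 101 and 13.2, and Cd24a was at 194 and 127 against 109 and 152. Trbc2 differed less, at 5096 and 4428 CPM against 5966 and 5991. These are descriptions of cells within each aorta, with no test.

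**Figure D4:**
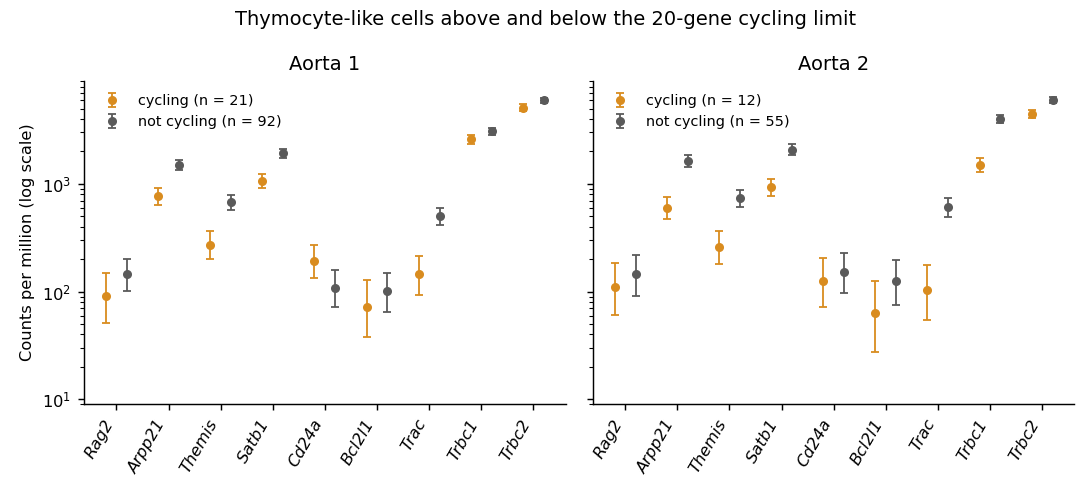
CPM on a log axis of 9 genes that did not choose the members, in members above (orange) and below (grey) the limit of 2 UMIs over 20 cell cycle genes, with exact 95% Poisson intervals that cover counting error only, in aorta 1 (left) and aorta 2 (right). Arpp21 was at 769 and 601 CPM in cycling members and at 1498 and 1627 in the others.

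Ranked over all genes tested, the 12 largest positive changes included, after the genes of the rule were left out, Gm525, Gm15340, Tctex1d1, Ptcra, Gm4632, the cystine transporter Slc7a11, Gpr162, Syt13, Wnt8b, BC065403 and Arpp21. All named but Arpp21 had 0 UMIs in mature T cells, and against the floor of 3 UMIs they were at least 25.9-fold (BC065403) to 102.2-fold (Gm525) higher. Without aorta 1 the bounds of those named ran from 4.02-fold (Ptcra and Syt13) to 28.2-fold (Gm15340), and without aorta 2 from 17.8-fold (BC065403) to 80.3-fold (Gm525). DESeq2 did not call Gm525 (adjusted p = 0.229) or Syt13 (0.34), nor Gzmb among the negative changes (0.407). Gm525 was at 131 and 90 CPM, Gm15340 at 118 and 101 and Slc7a11 at 55.6 and 57.6. The 12 largest negative changes were Ly6c2, the killer-cell receptor Klrd1, Izumo1r, the cytokine receptors Il2rb and Il18r1, Gzmb, Igflr1, Bcl2a1b, Hopx, Ifi213, Sema4a and Ms4a4c. None had a UMI in a member, and the bound ran from at least 8.85-fold lower (Sema4a) to at least 53.8-fold lower (Ly6c2, at 239 and 221 CPM in mature T cells). Without aorta 1 the bounds ran from 2.65-fold (Gzmb) to 20.4-fold (Ly6c2), and without aorta 2 from 4.48-fold (Sema4a) to 33.0-fold (Ly6c2). Ly6d, the ThB antigen of thymocytes and B cells, was also higher, at 1119 and 1228 CPM against 9.21 and 5.97 (log2 fold change 6.76).

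**Figure D5:**
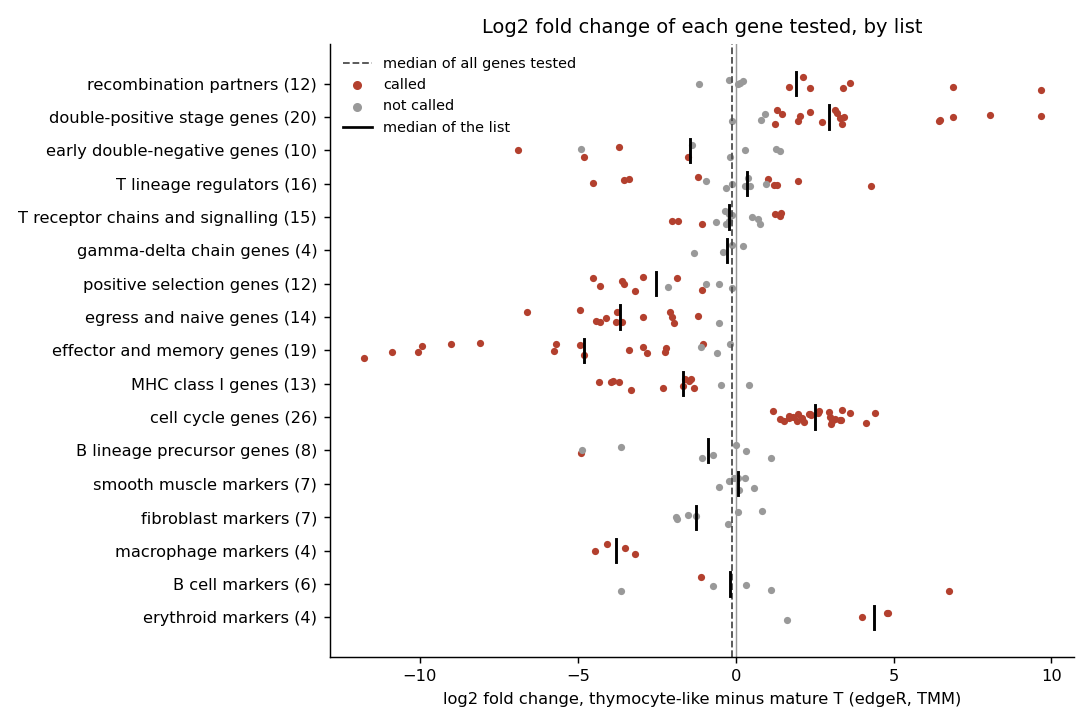
Log2 fold change (thymocyte-like minus mature T, edgeR with TMM scaling) of each gene tested, in rows by gene list, with the number tested in brackets, called genes in red, the list median as a black bar and the median of all genes tested (-0.11) as a dashed line. Genes with 0 UMIs in a class stand at fitted values that are no bound. All 26 cell cycle genes lie above 1, and the 3 called erythroid genes rest on 1 member, as described in the text.

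Markers of other cell types were checked in the members. None of 7 SMC markers was called in the main comparison. With mature T cells limited to the members' depth range 5 were called higher (median 1.48), with Scrublet calls removed 3 were higher, and with at least 2 Rag1 and Dntt UMIs per member 3 were lower. Their sum was 3070 and 3860 CPM in members and 2481 and 2810 in mature T cells. Acta2 had a UMI in 60 of 113 and 19 of 67 members, and 1 member per aorta held 51.2% and 60.1% of its UMIs. Endothelial markers summed to 29.0 and 21.6 CPM in the members against 128 and 147, with Cdh5, Kdr, Cldn5 and Tie1 at 0 UMIs, and the called gene Fabp4 was not called without mature T cells that carried an exclusion gene. Macrophage markers summed to 53.2 and 50.4 CPM against 357 and 498, and the 4 tested were all lower, none of them when those mature T cells were left out. The rule removes cells with Cd79a, Ms4a1, C1qa, Pecam1 or Pdgfra from members only, and 113 and 45 mature T cells carried such a gene. Lower B cell, macrophage, endothelial and fibroblast markers in members can thus be set by the rule. Of 6 B cell markers tested, Ly6d was higher and Cd37 lower (2 higher and none lower with scaling by total UMIs alone). Of 8 B precursor genes tested, none was higher (1 with that scaling) and 1 was lower, Cd74 (16.9 and 10.8 CPM against 373 and 273), which was not called without mature T cells that carried an exclusion gene (edgeR adjusted p = 0.0507). Ighm had a UMI in 57 and 38 members at 273 and 317 CPM, against 180 and 171 CPM in mature T cells and 227 and 271 CPM in macrophages. It was not called (log2 fold change 0.34, edgeR adjusted p = 0.423; with scaling by total UMIs alone 0.74, edgeR adjusted p = 0.0495). Of 2 innate lymphoid genes tested Rora was lower, and Ncr1, Klrb1c and Eomes had 0 UMIs in members.

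Some markers came from single cells. In aorta 1 a single member held 770 of 816 Dcn UMIs (94.4%), and it had 9 UMIs of Rag1 and Dntt. Fibroblast markers summed to 3367 and 450 CPM in the members, and none of 7 was called. Without that cell and the globin-rich cell described next, 4 of 7 were lower, but the rule leaves cells with Pdgfra out of the members only. In aorta 2 a single member held 1020 of 1051 UMIs of 4 globin genes (97.05%), and it had 14 UMIs of Rag1 and Dntt. Erythroid markers summed to 72.5 and 3785 CPM in members against 68.8 and 81.2, and 3 of 4 tested were called higher. None was called with the aorta as a block or by DESeq2. Without those 2 members none was called, and Hba-a1 had a log2 fold change of -0.74 in place of 4.82 (edgeR adjusted p = 0.789). Scrublet called neither cell a doublet.

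The aortas were also searched for the thymic stroma that such cells normally develop in. Over all 8947 and 6263 deposited cells Foxn1 and Aire, which define thymic epithelium, and the basal keratin Krt5 had 0 UMIs, and Psmb11 of the thymic cortex had 0 and 1. Of 11 listed genes of thymic epithelium 2 were tested between the classes, and neither was called. Prss16 had 8 and 4 UMIs and Tbata 5 and 3. Keratins and surface proteins that other epithelia or blood cells also make were present, with 989 and 498 UMIs of Krt8, 58 and 53 of Krt14, 80 and 67 of Epcam and 636 and 429 of Ly75, and Ccl25, which other cells also make, had 695 and 459 UMIs in 627 and 424 cells. Absence of these RNAs from the libraries cannot be told apart from absence of the cells from the digest. Whether thymic tissue lay by the aorta was not tested.

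The reporters in the members were nearer to those of the other blood cells than to those of SMCs. tdTomato had a UMI in 72.6% and 76.1% of members, in 64.6% and 58.0% of mature T cells and in 12.9% and 12.6% of SMCs. eGFP had one in 23.9% and 10.4% of members and 96.8% and 96.2% of SMCs. In aorta 1 it had one in 24.3% of mature T cells, 23.1% of B cells (759 CPM) and 32.4% of macrophages. In CPM, eGFP was at 394 and 223 in members and 6332 and 6018 in SMCs, against 406 and 488 in mature T cells and 461 and 436 in macrophages. The members of aorta 2 were the lowest of these. Xist had 0 UMIs in the members, which, at 3 counts over the number of cells, allows a share of cells with a UMI of up to 2.65% and 4.48%, and 1 or more of Uty, Kdm5d, Eif2s3y and Ddx3y, on the Y chromosome, had a UMI in 61.1% and 59.7%.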

How the data were processed

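Thoracic aortas of 2 mice were profiled by droplet single-cell RNA sequencing of 3' ends. The authors deposited raw UMI counts per gene and cell, made with Cell Ranger 4.0.0 (per the file headers) on mm10, 32287 features including both reporters, and no further normalization. The submitters' processing notes also name Seurat 4.0. A cell was kept if over 200 genes were detected, if it held between 1000 and 25000 UMIs, and if mitochondrial transcripts made up less than 10% of them. The members, rules and gene lists were chosen with earlier results of these data known. Doublets were called with Scrublet (scanpy 1.11.5) and kept, their removal being an alternative.

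Counts were summed per aorta for thymocyte-like cells, mature T cells, B cells and macrophages, which shared 1 estimate of the spread. The sums of the members held 413666 and 277693 UMIs and those of mature T cells 1845413 and 837695, so genes of low level are less precise in the members. They were tested with edgeR 4.0.16 (R 4.3.3; quasi-likelihood test, TMM, filterByExpr, Benjamini-Hochberg over all genes tested), after the procedure was tested on simulated data. Genes used to choose cells (18) were not tested. Genes were named from the lists and, over all genes, as the 12 highest and 12 lowest log2 fold changes among called genes with at least 20 UMIs in the higher class and 1 direction in both aortas. Some of these genes are counted in their lists and not reported here by name. Genes absent from 1 class were given as bounds against 3 UMIs over both aortas. Both classes come from the same 2 animals, so the aorta pairs them by design. Deviations of the 2 classes from their means had a correlation of -0.0037 over genes, and the fit with the aorta as a block is an alternative. Shares carry exact 95% binomial intervals that cover counting error only. Other alternatives were DESeq2 1.42.0, other scaling, filters, depths and gates. Coordinates are from GENCODE vM21 (GRCm38, the build of mm10) and promoters from RefSeq.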

Additional observations from a re-analysis of the deposited data

Results flagged for a closer look

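Cells outside the cell filter also met the rule on genes, 9 in aorta 1 and 4 in aorta 2, which the comparisons above do not use. Arpp21, which the rule does not hold, had 33 UMIs in the 9 cells and 30 UMIs in the 4, with at least 1 UMI in each of these cells. They were looked at again because this signal lies above the limit that a count of 0 allows, in data outside the comparisons. Of the 9, 6 had under 1000 UMIs, and the median depth of the 4 was 14127 UMIs.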

How the results depend on the processing

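The calls rest on 2 aortas, and members were shallow, so genes of low level and single cells weigh on the sums. The count of called genes (1639) ran from 1226 to 2032 under 11 alternatives and was 706 (278 higher, 428 lower) with each cell at 1000 UMIs, where 3444 genes were tested. With the aorta as a replicate block 1535 genes were called, 1515 of them also without it, and of the genes named only Hba-a1 lost its call (edgeR adjusted p = 0.0599). The share of members among T-lineage cells (mean 27.3%) became 14.2% at 5000 to 25000 UMIs, 35.2% without mature T cells that carried an exclusion gene and 32.1% with the rule applied at 1000 UMIs per cell, and 25.3% to 29.3% by aorta. The cycling share (mean 65.0%) became 82.3% at 5000 to 25000 UMIs, 93.3% without thinning, 43.6% at 3 UMIs and 18.2% without 6 general genes, a choice made after seeing the data, and 58.4% to 71.6% by aorta. Of 97 genes named or plotted, 20 lost significance in at least 1 alternative, among them Tcf3, Tubb5, Cenpa and Cd37 at 1000 UMIs per cell. Log2 fold changes reversed for Il2ra (0.20), Tox (0.28) and Trdc (0.29) with library size only, Trdc with at least 2 Rag1 and Dntt UMIs (0.0086), at 5000 to 25000 UMIs (0.56) and with mature T cells in the members' depth range (0.064), Dclre1c (-0.37) and Hba-a1 (-0.17) at 5000 to 25000 UMIs, Fabp4 without mature T cells with an exclusion gene (0.038) and in the depth range (0.91), and Hba-a1 (-0.74) and Dcn (-2.74) without the 2 members with most Dcn or globin UMIs. Values with 1 aorta left out are ratios of counts scaled by total UMIs, without TMM, so they are not on the scale of the fits. Without 1 aorta Hba-a1 ran from -0.82 to 6.20, and without aorta 1 Gzma was at 0.92 and Dcn at -3.04. By aorta left out, S1pr1 ran from -5.65 to -3.30, Dapl1 from -7.72 to -4.34 and Cd44 from -4.88 to -2.56, and without aorta 1 Aqp11 was at 8.04 and H2-Q7 at -5.04 and without aorta 2 Cxcr6 was at -6.36. Acta2 reversed with library size only (0.33), DESeq2 (0.0076), Scrublet calls removed (0.76), no exclusion genes (0.38), 5000 to 25000 UMIs (0.17) and in the depth range (1.48), and Ighm at 1000 UMIs per cell (-0.076). The cause was not tested.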
